A study of Mus musculus with 24 samples.

Results

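Left ventricles of Tm180 mice were compared with left ventricles of nontransgenic (NTG) mice at 12 months of age. The comparison used 6 of the 24 microarrays of the series, chosen by sample title, with 3 arrays for each genotype. Each array measured total RNA from ventricular tissue that had been frozen in liquid nitrogen, and by their titles the 3 arrays of a genotype are biological replicates. Tm180 mice carry an α-tropomyosin transgene, and NTG mice carry none. The remaining arrays covered PLB KO mice, which lack phospholamban, and Tm180/PLB KO mice, which combine both changes, at 12 months, and all 4 genotypes at 4 months. The labels give neither the strain, the sex nor the number of animals behind an array. No group analysed here carried an unmutated tropomyosin transgene, so an effect of the mutation and an effect of carrying a transgene cannot be told apart.

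Tropomyosin lies along the actin filament of the sarcomere and, together with troponin, lets calcium switch the filament between its resting and its contracting state. The Tm180 line is known as a model of familial hypertrophic cardiomyopathy, in which a mutant α-tropomyosin is made in heart muscle cells under the cardiac α-myosin heavy chain promoter, and the mutant filament responds to calcium more readily than the normal one. In a ventricle under such strain, muscle cells are known to switch on genes of the fetal heart, fibroblasts to lay down matrix, and the genes for burning fatty acids to be turned down. The series was designed to follow gene expression over time in this model and to ask what the loss of phospholamban, the brake on the calcium pump of the sarcoplasmic reticulum, changes in it.

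At 12 months the Tm180 ventricle had higher levels of both natriuretic peptide genes and of some genes of the fetal sarcomere and the matrix, and lower levels of a few genes for fatty acid use and ion channels. All values below are log2 expression values, so that a difference of 1 is a 2-fold change, and differences are Tm180 minus NTG with their standard error (SE). Of 15918 genes tested, 127 (0.798%) were called at an adjusted p under 0.05 in limma, a linear model with the 8 group means fitted to all 24 arrays. Of these, 62 (0.389%) rose, by a median of 0.87, and 65 (0.408%) fell, by a median of 0.77. In the gene lists, 9 of 21 fetal and hypertrophy markers and 7 of 63 matrix genes rose, and 3 of 33 genes of fatty acid use and 3 of 23 ion channel genes fell. Without Tm180 replicate 2, 15 genes were called in all. The matrix and channel calls were then lost, as were 5 of the 9 fetal marker calls, Nppb among them. Of the fatty acid calls, Eci1 was lost. The difference was at least 1.5-fold in 110 of the 127 genes and at least 2-fold in 38. In all 127 the 3 Tm180 arrays lay wholly above or wholly below the 3 NTG arrays, which was also true of 10.6% of all genes tested. The median difference over all genes was -0.0022, and 50.5% of them had a lower mean in Tm180. Genes of a list can vary together on an array, and counts of members by direction were not tested.

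Markers of ventricular muscle were high on the arrays of both groups, which does not show that atrial muscle was absent. The 12 markers of ventricular cardiomyocytes averaged 12.84 to 12.87 on the NTG arrays and 12.74 to 12.80 on the Tm180 arrays, and none was called. Tpm1, which encodes α-tropomyosin, read 12.78, 12.89 and 12.89 on the NTG arrays and 13.22, 13.13 and 13.15 on the Tm180 arrays. The groups did not overlap, and the difference was 0.31 ± 0.0889, which did not pass the test (adjusted p = 0.132 in limma). Pln, the phospholamban gene, read 13.71, 13.82 and 13.84 in NTG and 13.66, 13.59 and 13.88 in Tm180, which overlapped. Xist, a transcript of the silenced X chromosome, was high on NTG replicates 1 and 2 and Tm180 replicate 1, whereas Y-linked genes were high on NTG replicate 3 and Tm180 replicates 2 and 3. With a covariate for 3 Y-linked genes, 90 of the 127 calls were kept.

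3 arrays stood apart in small sets of genes. Tm180 replicate 2 exceeded the other 5 arrays by more than 1 in 106 genes, NTG replicate 1 in 37 and NTG replicate 2 in 7, against 0 to 2 on the remaining arrays. On Tm180 replicate 2, the list of cytokine, chemokine and acute phase genes averaged 8.18, against 6.62 to 7.28 on the other 5 arrays compared. Immediate-early genes averaged 8.74 on that array, and also 8.65 and 8.24 on replicate 2 of PLB KO and Tm180/PLB KO at 12 months. On NTG replicate 1 the interferon response list averaged 7.74, against 6.59 to 6.73 on the other 5 arrays compared. On NTG replicate 2 the list of atrial cardiomyocyte markers averaged 7.98, against 7.32 or less on the other 5 arrays compared. Its defining member Myl7, the atrial light chain of myosin, read 8.58 there, against 4.85 to 5.81 on those 5. Outside the comparison, the atrial list averaged 8.13, 7.93 and 8.05 on the 3 PLB KO arrays of 12 months. Without Tm180 replicate 2 the count of calls was 15, with 8 higher and 7 lower. Without NTG replicates 1, 2 and 3 it was 66, 43 and 74, and 14 genes were called whichever of the 6 arrays was left out: Nppa, Myh7, Xirp2, Gnao1, Ccdc80, Masp1 and Rtn4, which rose, and Ucp3, Acsm5, Mylk4, Prps2, Gpt, Crhr2 and Rbfox1, which fell. All 127 called genes kept the sign of their difference in each of these 6 fits, which was fixed because their arrays did not overlap between the groups.

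**Figure D1:**
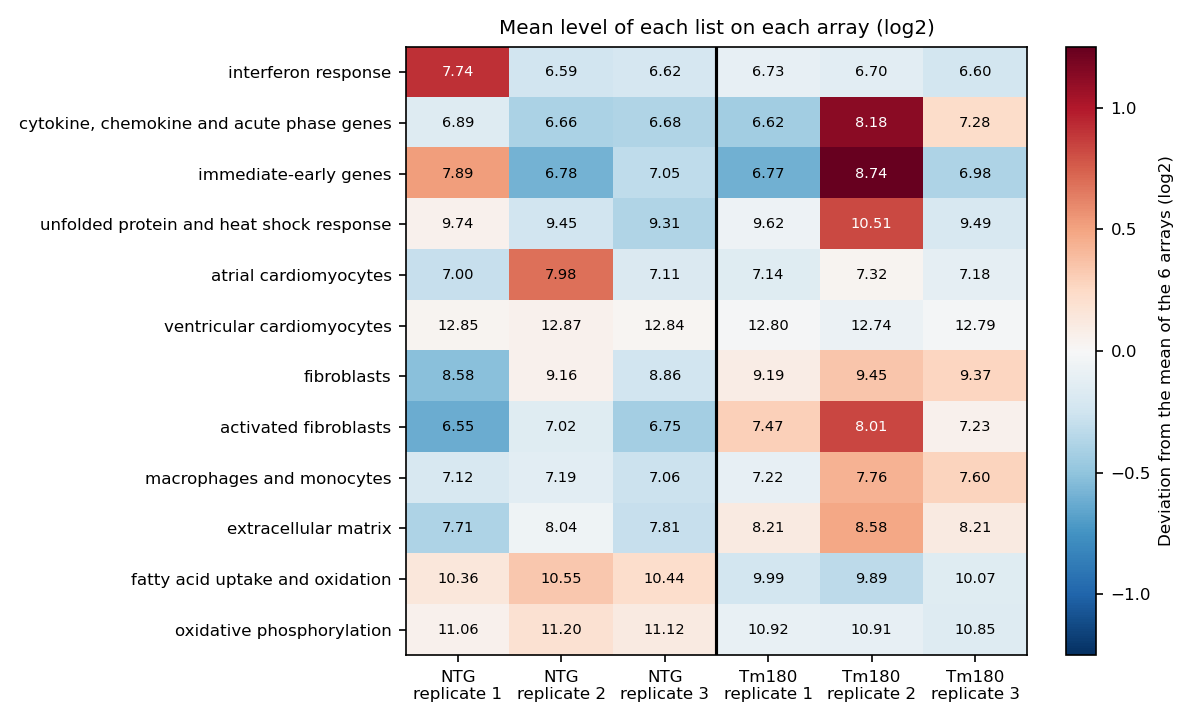
Mean log2 level of 12 gene lists (rows) on each of the 6 arrays (columns). Numbers give the mean level and colours its deviation from the mean of the 6 arrays. Interferon genes stood at 7.74 on NTG replicate 1, atrial genes at 7.98 on NTG replicate 2, and cytokine genes at 8.18 and immediate-early genes at 8.74 on Tm180 replicate 2, while fatty acid genes were lower on each Tm180 array (9.89 to 10.07) than on each NTG array (10.36 to 10.55).

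The natriuretic peptide genes led the rise. Nppb and Nppa encode the hormones that a stretched heart releases to lower blood volume, and in RefSeq (GRCm38.p6) their starts lie 14.8 kb apart on chromosome 4. Acta1 encodes skeletal α-actin, an actin of the fetal heart, and Ankrd1 a stretch-responsive repressor protein of the nucleus and the sarcomere. The 250 bases before the start of these 4 genes are shown because the genes rose together and because such short promoters are known to carry elements of the stress response. They lie at chr4:147985650-147985899 on the plus strand (Nppb), chr4:148000472-148000721 on the plus strand (Nppa), chr8:123894776-123895025 on the minus strand (Acta1) and chr19:36119845-36120094 on the minus strand (Ankrd1). Capitals mark TATAAA where it lies on the strand of the gene. On either strand they mark the letters CATTCC of the MCAT element, which TEAD factors are known to read. Also marked on either strand are AGATAA, which GATA factors bind, and the CArG box of serum response factor. Other forms of the GATA letters were not searched, so TGATAA in Nppb and Nppa stays in lower case. No 2 of the matches shown overlap.
Nppb: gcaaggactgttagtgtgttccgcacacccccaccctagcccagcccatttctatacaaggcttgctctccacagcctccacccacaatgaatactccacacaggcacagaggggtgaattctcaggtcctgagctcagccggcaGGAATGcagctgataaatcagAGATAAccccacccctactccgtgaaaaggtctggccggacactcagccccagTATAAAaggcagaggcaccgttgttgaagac
Nppa: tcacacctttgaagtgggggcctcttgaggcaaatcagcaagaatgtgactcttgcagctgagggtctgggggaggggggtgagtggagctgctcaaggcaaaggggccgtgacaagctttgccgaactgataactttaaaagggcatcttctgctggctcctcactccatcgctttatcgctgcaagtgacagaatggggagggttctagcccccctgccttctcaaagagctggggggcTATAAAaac
Acta1: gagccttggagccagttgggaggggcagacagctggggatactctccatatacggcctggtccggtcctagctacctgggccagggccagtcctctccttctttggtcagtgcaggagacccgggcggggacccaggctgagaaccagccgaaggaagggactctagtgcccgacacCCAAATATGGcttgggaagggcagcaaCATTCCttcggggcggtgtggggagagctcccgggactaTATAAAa
Ankrd1: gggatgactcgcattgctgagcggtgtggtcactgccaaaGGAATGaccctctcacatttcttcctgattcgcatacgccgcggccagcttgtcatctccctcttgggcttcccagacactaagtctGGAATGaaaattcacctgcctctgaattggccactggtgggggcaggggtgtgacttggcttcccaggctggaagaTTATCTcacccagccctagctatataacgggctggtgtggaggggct
The MCAT letters were found in Nppb, Acta1 and Ankrd1, the GATA letters in Nppb and Ankrd1, the CArG box in Acta1, and TATAAA in all but Ankrd1. Over the 250-base promoters of 27025 genes, 14.4% held the MCAT letters, against 14 of the 44 risen genes with a promoter in the table (31.8%) and 11 of the 54 fallen genes (20.4%). The TATAAA letters were in 8.94% of all genes, 15.9% of the risen and 7.41% of the fallen. The GATA letters were in 11.4%, 6.82% and 7.41%, and the CArG box in 1.62%, 2.27% and 0 of 54. These shares are descriptions of the letters in the window.

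Nppa, the atrial natriuretic peptide gene, read 10.35, 11.40 and 10.97 on the NTG arrays and 12.83, 13.43 and 12.98 on the Tm180 arrays. The groups were far apart, with a difference of 2.18 ± 0.28, or 4.52-fold (adjusted p = 0.00239 in limma). Nppb read 10.46, 9.62 and 10.79 in NTG and 12.02, 11.88 and 11.49 in Tm180, and NTG replicate 2 was its lowest array. Its difference was 1.50 ± 0.257 (adjusted p = 0.00793). For Acta1, NTG replicate 3 stood at 11.97 beside 10.55 and 10.57 on its 2 fellow arrays, so that the Tm180 arrays (12.29, 12.70 and 12.48) lay only a little above that array. Acta1 rose by 1.46 ± 0.339 (adjusted p = 0.0453). The atrial genes Myl7 and Myl4, which share a list with Nppa, were highest on NTG replicate 2 and not on a Tm180 array.

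Of 21 fetal and hypertrophy markers that passed the filter on dim signals, 9 rose and none fell, with a median of 0.65. Besides the 4 genes above these were Myh7, Rcan1, Mybpc2, Pfkp and Xirp2. Myh7, the slow β-myosin of the fetal ventricle, read 11.18, 11.61 and 11.46 in NTG and 12.85, 12.42 and 12.59 in Tm180, and rose by 1.20 ± 0.207 (adjusted p = 0.00793). Its adult partner Myh6 read 13.18, 13.17 and 13.21 in NTG and 12.93, 12.94 and 13.14 in Tm180, a difference of -0.18 ± 0.0841 that did not pass the test (adjusted p = 0.506). Rcan1, a calcineurin inhibitor that calcineurin itself induces, was even across NTG (9.19, 9.17 and 9.25) and uneven across Tm180, where replicate 3 read 9.53 beside 10.63 and 10.76. Ankrd1 read 12.51, 12.25 and 12.65 in NTG and 13.08, 13.06 and 12.93 in Tm180, a rise of 0.55 ± 0.115 (adjusted p = 0.0237). Nppa, Myh7 and Xirp2 were called in all 6 leave-one-out fits. Of the 9, 4 were called without Tm180 replicate 1 or replicate 2, 5 without NTG replicate 1 or replicate 2, 7 without NTG replicate 3 and 8 without Tm180 replicate 3, where Acta1 was lost (adjusted p = 0.0854 in limma).

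**Figure D2:**
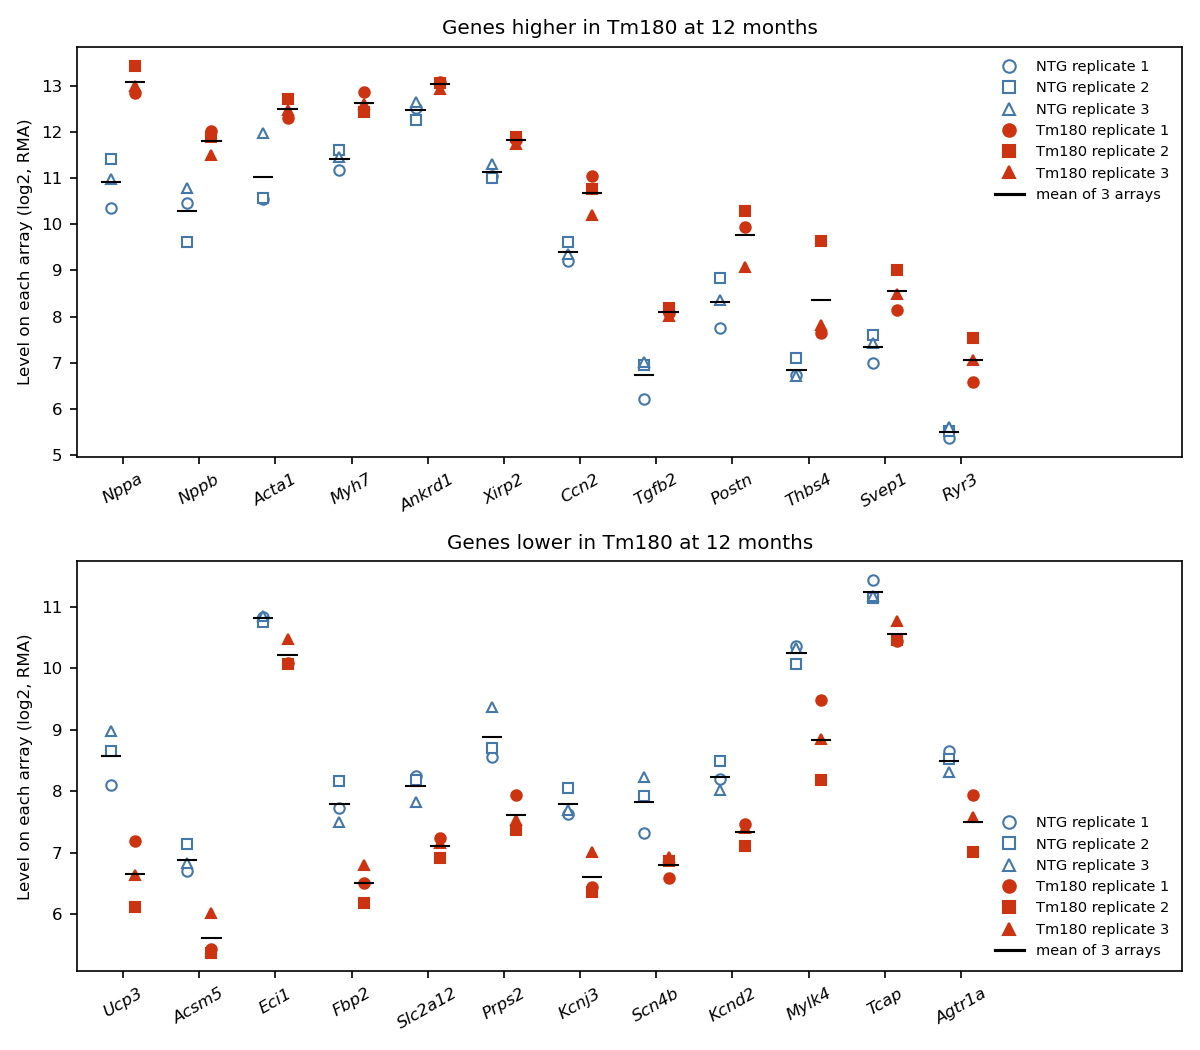
Log2 levels of 12 called genes that rose (top) and 12 that fell (bottom) on each of the 6 arrays at 12 months. Symbols mark single arrays and bars the mean of 3, and in each gene shown the 3 Tm180 arrays (filled) lay wholly above or below the 3 NTG arrays (open).

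Within the sarcomere, some members rose and others fell. Among 20 thin filament genes, Acta1 rose and Tmod4, a tropomodulin that caps the pointed end of actin, fell by 0.93 ± 0.179. Tmod4 read 7.47, 7.41 and 7.74 in NTG and 6.71, 6.21 and 6.90 in Tm180, with no overlap. Tnni3, cardiac troponin I, showed a difference of -0.38 ± 0.124 that did not pass the test (adjusted p = 0.209 in limma). Among 20 thick filament and M band genes, Myh7 and Mybpc2 rose, and Mylk4, a relative of the kinases that phosphorylate myosin light chains, fell. Mybpc2, the myosin-binding protein C of fast skeletal muscle, read 7.28, 7.62 and 7.51 in NTG and 8.84, 8.20 and 8.38 in Tm180. Mylk4 read 10.36, 10.07 and 10.34 in NTG and 9.49, 8.19 and 8.85 in Tm180, the widest spread of Tm180 arrays among these genes, and fell by 1.41 ± 0.229 (adjusted p = 0.00549). Among 29 genes of the Z disc and intercalated disc, Xirp2, an actin-binding repeat protein of cell junctions, rose by 0.70 ± 0.11 and the ankyrin repeat gene Ankrd23 by 0.54 ± 0.114, along with Ankrd1. Tcap, the titin cap, read 11.44, 11.14 and 11.17 in NTG and 10.44, 10.46 and 10.77 in Tm180, and fell by 0.69 ± 0.131 (adjusted p = 0.014). Of the 9 genes called in these 3 lists, 4 were called without Tm180 replicate 2, with the lost genes at adjusted p from 0.118 to 0.27, 4 without NTG replicate 1 and 5 without Tm180 replicate 1.

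The extracellular matrix genes lay mostly above NTG. Of 63 that passed the filter, 7 rose and none fell, 57 had a higher mean in Tm180, and the median was 0.42. Over all genes, 50.5% had a lower mean. Postn, periostin, which activated fibroblasts secrete, read 7.76, 8.84 and 8.37 in NTG and 9.94, 10.28 and 9.07 in Tm180. The groups were separated by only a small step between NTG replicate 2 and Tm180 replicate 3, and Postn rose by 1.44 ± 0.304, or 2.72-fold (adjusted p = 0.0251 in limma). Ccn2, the connective tissue growth factor, read 9.21, 9.61 and 9.35 in NTG and 11.04, 10.77 and 10.19 in Tm180, and rose by 1.28 ± 0.255. Cilp, a matrix protein of cartilage and of fibrotic heart, was tight in NTG (5.95, 5.91 and 6.04) and stood at 6.87, 7.49 and 7.01 in Tm180. Thbs4, a thrombospondin, rose by 1.51 ± 0.353 (adjusted p = 0.0462), but Tm180 replicate 2 at 9.63 lay well above its fellows at 7.65 and 7.83, and without it the difference was 0.88 (adjusted p = 0.267). The other risen members were Svep1, a large adhesion protein (1.21 ± 0.229), the proteoglycan Vcan (1.15 ± 0.245) and decorin, Dcn (0.45 ± 0.105).

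The fibrillar collagens were higher on average without being called. Col1a1 read 8.50, 9.33 and 9.35 in NTG and 9.53, 10.12 and 10.04 in Tm180, a difference of 0.84 ± 0.355 (adjusted p = 0.436 in limma). Col3a1 differed by 0.92 ± 0.408 (adjusted p = 0.471), and in both genes NTG replicate 1 was the lowest of the 6 arrays. Of 33 genes of collagen processing and matrix turnover, P3h2, which hydroxylates collagen prolines, rose by 0.98 ± 0.201 and no other was called, with a list median of 0.40. Timp1, an inhibitor of matrix proteases, had the largest difference of that list, 1.91 ± 0.863, and was not called (adjusted p = 0.495): it read 10.20 on Tm180 replicate 2 and 5.55 to 6.58 on the others. Col1a1, Col3a1 and Timp1 were picked after their values were seen.

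Of 40 genes of transforming growth factor β signalling, the pathway that drives fibroblasts to make matrix, 3 rose and none fell, with a median of 0.19. Tgfb2, a ligand, read 6.22, 6.96 and 7.03 in NTG and 8.08, 8.18 and 8.02 in Tm180. NTG replicate 1 was again the lowest array, all 3 Tm180 arrays were near one another, and the rise was 1.36 ± 0.27 (adjusted p = 0.0186 in limma). A second ligand gene, Tgfb3, rose by 0.90 ± 0.199, and Nox4, an NADPH oxidase that the pathway induces, by 0.95 ± 0.22. Of the 11 called genes of matrix, collagen processing and this pathway, none was called without Tm180 replicate 2 (adjusted p from 0.0673 to 0.303) and 1 was called without NTG replicate 1. Without NTG replicates 2 and 3, 8 and 3 of them were called, and without Tm180 replicates 1 and 3, 6 and 9.

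Markers of fibroblasts and macrophages were also mostly higher on average. The fibroblast lists share genes with the matrix list, 7 of the 15 fibroblast markers and 9 of the 13 markers of activated fibroblasts, so they are not separate evidence. All 15 fibroblast markers and all 13 markers of activated fibroblasts had higher means in Tm180, with medians of 0.46 and 0.87. Dcn was called among the former, and Postn, Thbs4 and Cilp among the latter, all 4 counted above as matrix genes. The fibroblast list averaged 8.58, 9.16 and 8.86 on the NTG arrays and 9.19, 9.45 and 9.37 on the Tm180 arrays, so the highest NTG array lay just below the lowest Tm180 array. The activated fibroblast list averaged 6.55 to 7.02 in NTG and 7.23 to 8.01 in Tm180, and its median was 0.42 without Tm180 replicate 2. Of 17 macrophage and monocyte markers, 16 had higher means, while 50.5% of all genes had lower ones. The median of these markers was 0.44, and 0.24 without Tm180 replicate 2. Mrc1, the mannose receptor of resident macrophages, was the called member, at 0.72 ± 0.169 (adjusted p = 0.0462 in limma). Mrc1 read 7.80, 7.71 and 7.76 in NTG and 8.11, 8.71 and 8.61 in Tm180, and was called in 1 of the 6 leave-one-out fits, with the largest adjusted p, 0.36, without Tm180 replicate 2 (0.60). In whole tissue, more cells of a type and more RNA per cell cannot be told apart, and the part of these markers in the matrix genes was not tested. Endothelial markers showed no call among 15, with a median of 0.01, and smooth muscle and pericyte markers none among 12, with a median of -0.15.

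**Figure D3:**
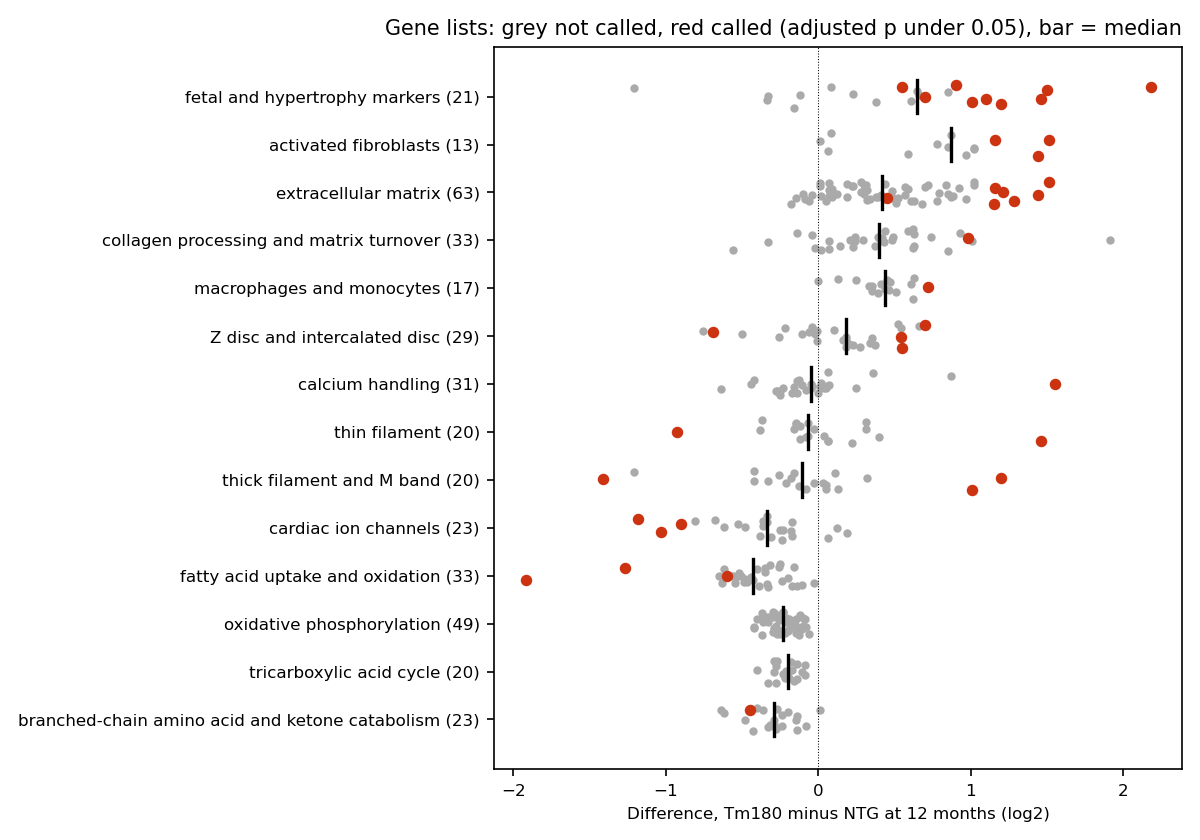
Difference of each gene, Tm180 minus NTG at 12 months (log2, horizontal axis), in 14 gene lists, with the number of genes that passed the filter in brackets. Red points were called at an adjusted p under 0.05 and bars mark list medians, which ran from 0.87 in activated fibroblasts to -0.43 in fatty acid uptake and oxidation.

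Genes for fatty acid use lay below NTG throughout. All 33 genes of fatty acid uptake and oxidation had a lower mean in Tm180, against 50.5% of all genes, with a median of -0.43. In 18 of them the 3 Tm180 arrays lay below the 3 NTG arrays, against 5.2% of all genes. Ucp3, Acsm5 and Eci1 passed the test. Ucp3, an uncoupling protein homologue of the mitochondrial inner membrane, read 8.10, 8.65 and 8.98 in NTG and 7.19, 6.12 and 6.64 in Tm180. It fell by 1.92 ± 0.277, the largest fall among the called genes (adjusted p = 0.00413 in limma). Acsm5, a ligase that activates medium-chain fatty acids, read 6.70, 7.14 and 6.83 in NTG and 5.44, 5.38 and 6.03 in Tm180, and fell by 1.27 ± 0.189 (adjusted p = 0.00413). Eci1, which shifts double bonds of unsaturated fatty acids, fell by 0.60 ± 0.108 (adjusted p = 0.0107). At the other end of the list, the fatty acid transporter Cd36 differed by -0.03 ± 0.151 and overlapped between the groups, and it was picked after its values were seen. Tm180 replicate 2 did not decide the list's median, which was -0.41 without it and -0.34 to -0.47 when any of the other 5 arrays was left out.

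Among 25 genes of the PPARα and PGC1 programme, which switches on fatty acid oxidation, Rxrg, Ehhadh and Ucp3 fell. Rxrg, a retinoid X receptor that pairs with PPARα, read 8.58, 8.45 and 8.22 in NTG and 7.67, 7.70 and 7.63 in Tm180. It fell by 0.75 ± 0.141 (adjusted p = 0.0129 in limma). Ehhadh, a peroxisomal enzyme of fatty acid oxidation, fell by 0.66 ± 0.14. Ppara itself differed by -0.32 ± 0.164 (adjusted p = 0.612) and Ppargc1a, which encodes PGC1α, by -0.46 ± 0.262 (adjusted p = 0.729), both picked after their values were seen, and neither was called.

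Respiratory chain genes shifted by less. None of 49 genes of oxidative phosphorylation was called at an adjusted p under 0.05 in limma, while all 49 had a lower mean, with a median of -0.23, and 19 were separated. Of the 49, 14 had an unadjusted p under 0.05. Over all 15918 genes tested, 50.5% had a lower mean, 5.2% were separated with Tm180 lower, and 1428 had an unadjusted p under 0.05. Ndufa3, a subunit of complex I, read 9.94, 10.23 and 10.39 in NTG and 9.64, 9.79 and 9.87 in Tm180 (-0.42 ± 0.124, adjusted p = 0.144). None of 20 tricarboxylic acid cycle genes was called (6 at an unadjusted p under 0.05), and all 20 had a lower mean, with a median of -0.20. Suclg2, a subunit of succinyl-CoA ligase, had the smallest p of that list, with a difference of -0.40 ± 0.136 (adjusted p = 0.231). Of 23 genes that break down branched-chain amino acids and ketones, 22 had a lower mean (median -0.29), and Bckdha, a subunit of the branched-chain keto acid dehydrogenase, fell by 0.45 ± 0.104 (adjusted p = 0.0453).

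Glucose genes moved in both directions. Of 32 genes of glucose uptake, glycolysis and gluconeogenic enzymes, Pfkp rose while Fbp2 and Slc2a12 fell, and the median was -0.06. Pfkp, the platelet form of phosphofructokinase, which commits glucose to glycolysis, read 9.38, 8.77 and 9.10 in NTG and between 9.72 and 10.22 in Tm180 (0.90 ± 0.202). Fbp2, the muscle fructose bisphosphatase, which runs the opposite reaction, read 7.73, 8.17 and 7.51 in NTG and 6.51, 6.19 and 6.81 in Tm180 (-1.30 ± 0.263). Slc2a12, a glucose transporter, fell by 0.97 ± 0.167 (adjusted p = 0.00793 in limma). Of 14 genes of creatine kinase and nucleotide supply, Prps2, a synthetase of the ribose precursor of nucleotides, fell by 1.27 ± 0.198, and muscle creatine kinase, Ckm, differed by -0.32 ± 0.0884 without being called (adjusted p = 0.107). Of the 10 called genes of metabolism, Ucp3, Acsm5 and Prps2 were called in all 6 leave-one-out fits. Without Tm180 replicate 2 the other 7 were lost, at adjusted p from 0.0747 to 0.297, and without NTG replicate 2, 5 were called.

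Most ion channel genes had lower means in Tm180. Of 23 cardiac ion channel genes, 20 had a lower mean, against 50.5% of all genes. The median was -0.34, and Kcnj3, Scn4b and Kcnd2 fell. Kcnj3, a subunit of the potassium channel that acetylcholine opens, read 7.63, 8.05 and 7.69 in NTG and 6.44, 6.37 and 7.01 in Tm180. It fell by 1.18 ± 0.246 (adjusted p = 0.0237 in limma). It is also on the list of atrial markers, of which Nppa rose and Kcnj3 fell among 12. Of the 6 arrays compared, NTG replicate 2 had the highest mean of that list. Scn4b, an auxiliary subunit of sodium channels, read 7.32, 7.93 and 8.23 in NTG and 6.59, 6.87 and 6.94 in Tm180, where NTG replicate 1 came closest to Tm180, and fell by 1.03 ± 0.214 (adjusted p = 0.0237). Kcnd2, which carries part of the transient outward potassium current, read 8.21, 8.49 and 8.02 in NTG and 7.47, 7.12 and 7.41 in Tm180, and fell by 0.90 ± 0.159. None of the 3 channels was called without Tm180 replicate 2 or without NTG replicate 2, and the part of atrial RNA in their difference was not tested.

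Of 31 calcium handling genes, Ryr3 alone was called. Ryr3, an intracellular calcium release channel, was tight in NTG (5.37, 5.52 and 5.61) and read 6.58, 7.53 and 7.06 in Tm180, a rise of 1.55 ± 0.283 (adjusted p = 0.0107 in limma). Atp2a2, the calcium pump that phospholamban restrains, read 13.47, 13.54 and 13.48 in NTG and 13.39, 13.32 and 13.36 in Tm180. Its arrays did not overlap, and the difference of -0.14 ± 0.076 did not pass the test (adjusted p = 0.675); the gene was picked after its values were seen. Without Tm180 replicate 2 the rise of Ryr3 was 1.32 (adjusted p = 0.115).

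Receptor genes split as well. Of 29 genes of adrenergic, angiotensin and endothelin signalling, Gnao1 and Edn3 rose and Agtr1a and Adra1b fell. Gnao1, the α subunit of the inhibitory G protein Go, read 7.62, 8.03 and 8.09 in NTG and 8.69, 8.92 and 9.01 in Tm180, and rose by 0.96 ± 0.154 (adjusted p = 0.00519 in limma). Edn3, an endothelin peptide gene, rose by 0.81 ± 0.167. Agtr1a, an angiotensin II receptor, read 8.65, 8.53 and 8.31 in NTG and 7.94, 7.01 and 7.58 in Tm180, and fell by 0.98 ± 0.204 (adjusted p = 0.0237). Adra1b, an α-adrenergic receptor, read 7.03, 7.23 and 7.02 in NTG and 6.35, 6.36 and 6.50 in Tm180 (-0.69 ± 0.14). Of these 4 genes and the 4 channels above, Gnao1 was called in all 6 leave-one-out fits, and the other 7 were lost without Tm180 replicate 2, at adjusted p from 0.0962 to 0.224. Without NTG replicate 2, 2 of the 8 were called, and 4 each without NTG replicate 1 and without Tm180 replicate 1.

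Stress and defence genes gave few calls. Of 36 genes of stress kinase, calcineurin and Hippo signalling, Ccn2, Rcan1 and Ankrd1, all described above, rose, and the median was 0.03. Hspa1l, a heat shock protein gene, was the called member of 26 unfolded protein and heat shock genes. It read 6.55, 6.43 and 6.30 in NTG and 7.44, 7.42 and 7.10 in Tm180, and rose by 0.90 ± 0.149 (adjusted p = 0.00706 in limma), which was lost without Tm180 replicate 2 (0.84, adjusted p = 0.0636). The median of that list was 0.39, and 0.04 without Tm180 replicate 2. Of 26 genes listed under oxidative stress defence, only Nox4 was called, which is itself an oxidase. Of 34 cytokine, chemokine and acute phase genes, Lbp, which presents bacterial lipopolysaccharide, and Serping1, the inhibitor of complement C1, rose. Lbp read 6.35, 7.07 and 6.71 in NTG and 7.24, 9.32 and 8.07 in Tm180, and its rise of 1.50 ± 0.353 (adjusted p = 0.0477) was 0.95 without Tm180 replicate 2 (adjusted p = 0.369). Serping1 rose by 0.71 ± 0.147 (adjusted p = 0.0237), and by 0.63 without that array (adjusted p = 0.203). Both Lbp and Serping1 were called in 1 of the 6 leave-one-out fits, the one without Tm180 replicate 1. None of 19 interferon response genes was called (3 at an unadjusted p under 0.05, against 1428 of all 15918 genes). Their median of -0.31 became 0.08 without NTG replicate 1.

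Of the 44 lists, 21 had no called member at an adjusted p under 0.05. Over all genes tested 0.798% were called, so the lack of a call in a short list is no result about that list. Besides those named above these were immediate-early genes, the integrated stress response, the circadian clock, the cell cycle, autophagy and proteolysis, and markers of the conduction system, lymphocytes, neutrophils, mast cells and platelets, erythroid cells, adipocytes, mesothelium, Schwann cells and neurons, skeletal muscle fibres, and valve and cartilage. Dbp, a clock output gene, differed by -0.34 ± 0.183, and Ccnd2, a cyclin, by 0.56 ± 0.139 (adjusted p = 0.0638 in limma). Ctsk, a lysosomal protease, differed by 0.63 ± 0.164 (adjusted p = 0.0856), and Tnmd, a tendon gene on the valve list, by 1.01 ± 0.266 (adjusted p = 0.0902).

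Most called genes, 82 of 127, were on no list. Among the 20 largest rises, Ccdc80, a secreted matrix-binding protein, read 9.54, 9.75 and 9.32 in NTG and 10.36, 10.83 and 10.69 in Tm180, and rose by 1.09 ± 0.168 (adjusted p = 0.00479 in limma). Srpx (1.08), Pi16 (1.05), Dpysl3 (1.05), Aebp1 (1.04) and Itgbl1 (1.21) completed these rises. Of those 6 genes, Ccdc80 was the one called without Tm180 replicate 2. Among the 20 largest falls, Gpt, alanine aminotransferase, read 7.44, 7.60 and 7.50 in NTG and 6.62, 6.36 and 6.60 in Tm180, and fell by 0.99 ± 0.141 (adjusted p = 0.00413). Amy1, an amylase, fell by 1.42 ± 0.273, with readings of 8.37, 8.80 and 9.10 in NTG and 7.47, 6.70 and 7.83 in Tm180. Pdp2, the phosphatase that activates pyruvate dehydrogenase, fell by 1.14, and Pla2g5, a secreted phospholipase, by 1.05. Efnb3, an ephrin, fell by 1.16, and the receptor genes Mrgprh and Gpr22 by 1.18 and 1.02. Cabcoco1 fell by 1.22, Klhl33 by 1.15, Ptchd3 by 1.12 and Slc41a3, a magnesium transporter gene, by 1.02. Of these 11 falls, Gpt was called in all 6 leave-one-out fits, 1 was called without Tm180 replicate 2 and 2 were called without NTG replicate 2.

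The difference between the genotypes was then set against that at 4 months, measured on 6 further arrays. Of the 127 genes called at 12 months, 126 had the same sign at 4 months, against 62.9% of all genes tested. At 4 months 81 genes (0.509%) were called, 0.295% of those tested as higher and 0.214% as lower. Of these, 48 were also called at 12 months, 29 higher and 19 lower at both ages and none in opposite directions. That is 37.8% of the genes called at 12 months and 59.3% of those called at 4 months. The median difference of the 62 risen genes was 0.75 at 4 months and 0.87 at 12 months, and that of the 65 fallen genes was -0.58 and -0.77. Since the genes were chosen at 12 months, a smaller size at 4 months is in part fixed by the choice. No gene was called for a difference between the ages in limma (0%, lowest adjusted p 0.806). Of all 15918 genes, 144 had an unadjusted p under 0.05, among them 13 of the 127. Those 144 are fewer than this cut would pass on average without any difference.

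Within those 13 genes, the group whose mean stood apart was not always the same. Ucp3 stood at 6.66 ± 0.0779 (SD, n = 3) in NTG at 4 months and 8.58 ± 0.446 at 12 months, and at 6.73 ± 0.349 and 6.65 ± 0.534 in Tm180. It was the one gene called between the ages in NTG (1.92 ± 0.277, SE, adjusted p = 0.0141 in limma). No gene was called between the ages in Tm180, where 277 of 15918 had an unadjusted p under 0.05, also fewer than expected without any difference. Slc41a3 read 8.36 ± 0.0542 (SD) and 9.44 ± 0.0589 in NTG, which was not called (adjusted p = 0.213 in limma), beside 8.36 ± 0.439 and 8.42 ± 0.152 in Tm180. Slc25a22, a mitochondrial glutamate carrier, and Sema3a, a guidance signal for axons, had the same shape. In Etv5, a transcription factor of growth factor signalling, and Gda, guanine deaminase, the Tm180 mean at 12 months was the highest of the 4. Gda was 7.48 ± 0.0449 at 4 months and 8.07 ± 0.248 at 12 months in Tm180, and 7.35 ± 0.156 and 7.37 ± 0.0962 in NTG. Slc25a22, Sema3a, Etv5 and Gda were picked for this shape after their values were seen, and none of the 4 was called between the ages in either genotype or for the difference between the ages. Nppb, outside the 13, was 11.25 ± 0.251 and 11.79 ± 0.276 in Tm180 and 10.48 ± 0.382 and 10.29 ± 0.604 in NTG. Myh7 was higher at 12 months in both genotypes, at 10.25 ± 0.457 and 11.42 ± 0.22 in NTG and 12.10 ± 0.397 and 12.62 ± 0.218 in Tm180.

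**Figure D4:**
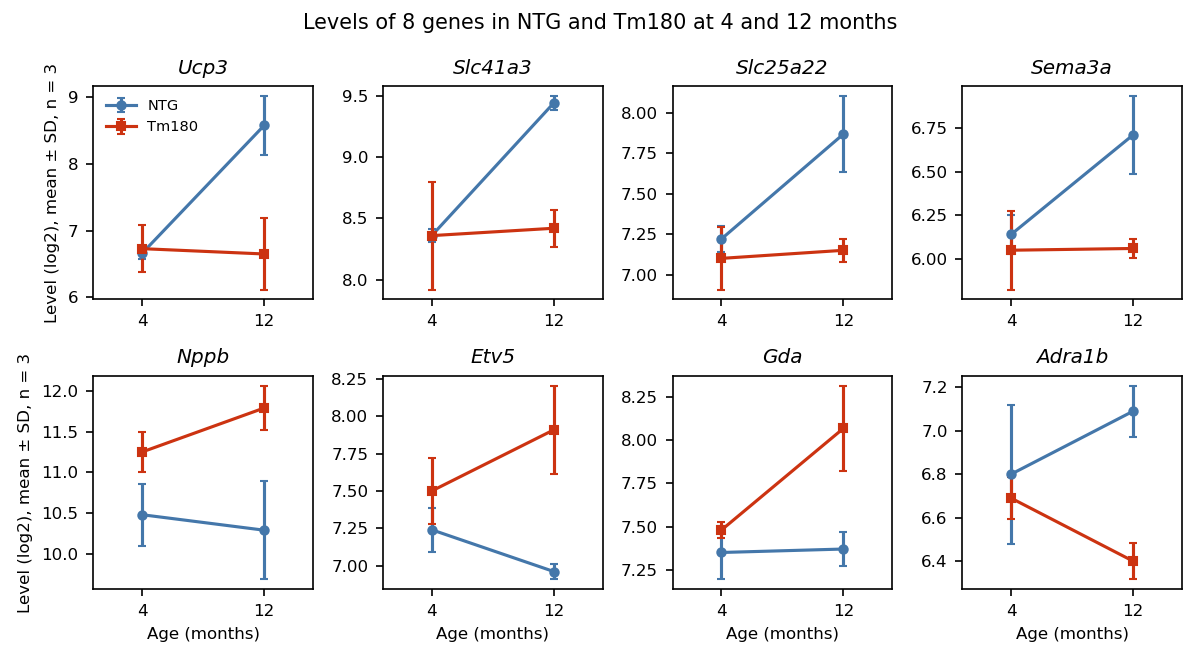
Mean log2 level ± SD (n = 3 arrays) of 8 genes in NTG and Tm180 at 4 and 12 months of age. In Ucp3, Slc41a3, Slc25a22 and Sema3a the NTG mean at 12 months stood above the other 3 group means, while in Etv5 and Gda the Tm180 mean at 12 months did. Lines join groups of different mice.

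The NTG arrays of 12 months also served as controls for PLB KO and Tm180/PLB KO hearts, so those comparisons share them and only side-by-side values are given. The median difference of the 62 risen genes was 0.87 in Tm180, 0.69 in Tm180/PLB KO and 0.42 in PLB KO, and that of the 65 fallen genes -0.77, -0.68 and -0.41. Since the genes were chosen in Tm180 against these NTG arrays, smaller sizes in the other groups are in part fixed by the choice. The shared arrays also favour the same sign. Nppa was higher than NTG by 2.18, 2.14 and 1.81 in the same order, and Nppb by 1.50, 1.50 and 1.12. Cilp differed by 1.16, 1.16 and 0.28, Postn by 1.44, 1.58 and 0.64, and Mrc1 by 0.72, 0.24 and 0.05. Ucp3 differed by -1.92, -1.97 and -1.49, Mylk4 by -1.41, -2.02 and -1.15, and Kcnd2 by -0.90, -0.34 and -0.12. In the direct comparison of Tm180 with Tm180/PLB KO, which uses no NTG array, Pln was the 1 gene called of 15918 (0.00628%) at an adjusted p under 0.05 in limma. An unadjusted p under 0.05 was held by 213 genes, fewer than that cut would pass on average without any difference. In that comparison Myh7 was higher in Tm180 by 0.40 ± 0.207 (adjusted p of 1) and Nppa by 0.04 ± 0.28.

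The number of calls varied with the arrays and the fit. A fit to the 6 compared arrays alone, with 4 residual degrees of freedom in place of 16, gave 0 calls in limma. At an unadjusted p under 0.05 it held 927 genes, and the fit to all 24 arrays held 1428. Array weights shifted the balance of the calls to 41 higher and 66 lower, or 38.3% higher against 48.8%.

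**Figure D5:**
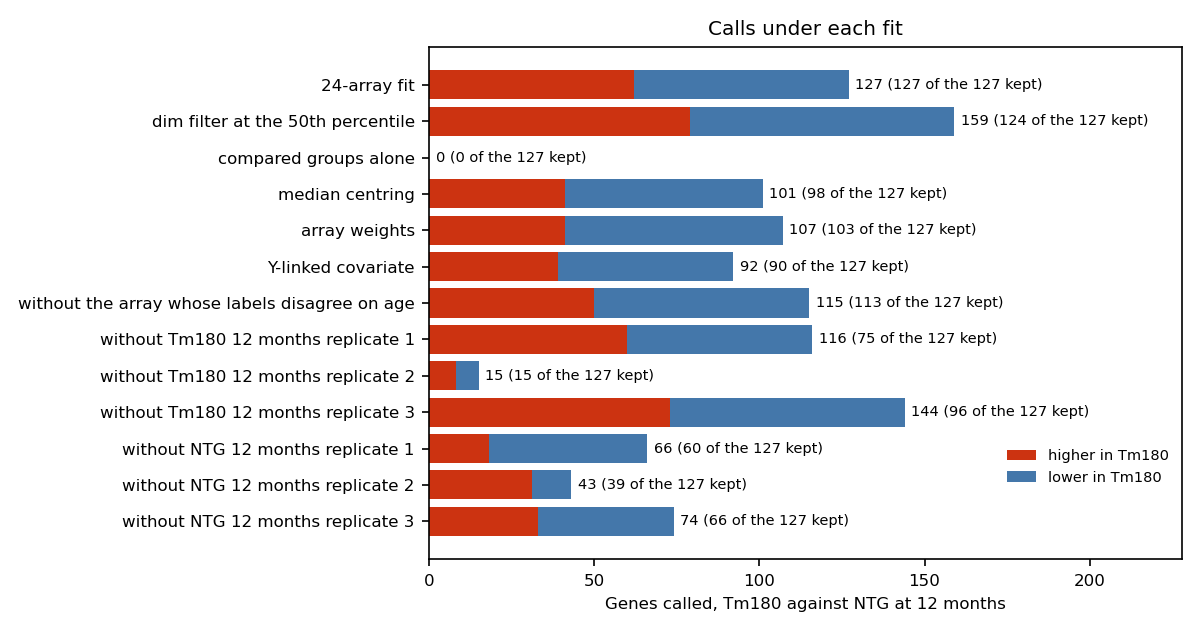
Genes called in Tm180 against NTG at 12 months (horizontal axis), split into higher and lower. Bars show the fit to all 24 arrays and 12 of the 16 alternatives. Not drawn are the fits without the dim filter, with the mean of probe sets, with a trended robust prior and with the replicate block (713 calls). Text beside each bar gives the count and how many of the 127 calls were kept. The bar without Tm180 replicate 2 stands at 15, and the fit to the compared groups alone gave 0 calls, with 927 genes at an unadjusted p under 0.05.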

How the data were processed

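Per the labels, total RNA of left ventricle was isolated with Trizol, cleaned on a column and labelled with biotin, and 300 ng was used for each array of an Affymetrix platform. The deposited values are log2 expression values of 35557 probe sets, which the authors obtained with RMA, as the submitters' processing notes say. This method corrects the background, gives the arrays 1 distribution and summarises the probes of a set, so that a change shared by most genes would not be visible. No version or genome build is given in the sources used here. Arrays have no read depth, and their number limits the precision. Array medians lay between 5.78 and 5.90.

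Genes were named through the annotation of the platform: 21789 had 1 gene symbol, 1621 several and 12147 none. The brightest of a gene's probe sets was used, and genes had to exceed 4.83, the 25th percentile, on at least 3 arrays. The 8 group means were fitted to all 24 arrays with limma 3.58.1 in R 4.3.3, with 16 residual degrees of freedom, and all adjusted p-values are limma's, by Benjamini-Hochberg over 15918 genes. Calls were made at an adjusted p under 0.05. In 1 Tm180/PLB KO array the source name gives 12 months and the title 4, and 4 was used. Beyond the titles nothing says that the arrays came from separate animals, so p-values measure the spread between these arrays, which may be technical.

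Named were Tpm1 and Pln, and the 20 highest and 20 lowest called genes whose arrays did not overlap. Every called member of the 44 gene lists was also named. For a list without a call, its 2 members with the smallest p could be named, and only some of them are given. Genes picked otherwise are mostly marked as such. Myl7, Myl4 and the genes given for arrays that stood apart are not marked, and were picked after their values were seen. The groups, lists and rules were chosen with earlier results of these data known. The fit was also run on simulated data with independent noise in each gene and array. Those data hold no array that stands apart and no genes that vary together, so they do not test either. Alternatives were the replicate number as a block, the filter, the variance prior, the compared groups alone, median centring, array weights, the mean of probe sets, a Y-linked covariate and the omission of single arrays. Promoters are those of RefSeq, 250 bases before each start, and 98 of the 127 called genes had one.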

Additional observations from a re-analysis of the deposited data

How the results depend on the processing

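Each of the 127 called genes kept its sign under every alternative in which it was tested. Because their arrays did not overlap between the groups, the fits that omit 1 array could not have turned a sign. The count of calls was 101 without the dim filter, 159 with a filter at the 50th percentile, 133 with a trended robust prior, 101 with median centring, 107 with array weights, 127 with the mean of probe sets, 92 with a Y-linked covariate and 115 without the array whose labels disagree on age. It was 0 from the compared groups alone (927 genes at an unadjusted p under 0.05). Omitting 1 array at a time gave 15 to 144 calls. Same-numbered arrays of the 2 groups deviated from their group means with correlations of 0.159, 0.0556 and 0.586. Differently numbered arrays did so with correlations of -0.368 to 0.201. The numbers were not taken to pair the samples because the labels do not say that they pair animals. Some groups also deviated together by number. Immediate-early genes averaged 8.74, 8.65 and 8.24 on replicate 2 of Tm180, PLB KO and Tm180/PLB KO at 12 months, but 6.78 on that of NTG. At 4 months they averaged 7.98 and 8.09 on replicate 1 of Tm180 and NTG. What same-numbered arrays share was not tested. With the replicate block 713 genes were called, 337 of them higher, and Tpm1 (0.31) passed the test (adjusted p = 0.0223 in limma). The difference between ages gave 0 to 1 calls and Tm180 against Tm180/PLB KO 1 to 5 calls when single arrays were omitted, with 1 without Tm180 replicate 1 of 4 months and 5 without Tm180 replicate 1 of 12 months. Uncalled values that turned sign were Socs3 (-0.01 without Tm180 replicate 2, and up to 1.68 without another array), Alas2 (0.02 without Tm180 replicate 3, and down to -0.38) and Uty (-0.08 with the Y-linked covariate). The cause of these shifts was not tested, except that fewer arrays enter the fits that omit some. With 3 arrays a group, an exact permutation test of a single gene cannot go below p = 0.1.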

Other observations

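Some further called genes on no list are given here, picked after their values were seen, with no test of a theme. Those that rose included the integrin subunit genes Itgav (0.39 ± 0.092) and Itgb5 (0.45 ± 0.104), whose products form a receptor for matrix, moesin, Msn (0.59 ± 0.13), which ties the membrane to actin, cortactin, Cttn (0.42 ± 0.0967), and Hbegf, the heparin-binding ligand of the epidermal growth factor receptor (0.82 ± 0.175). Itgav read 7.95, 8.08 and 7.96 in NTG and 8.34, 8.49 and 8.34 in Tm180, and Hbegf 7.70, 7.71 and 7.72 in NTG and 8.96, 8.47 and 8.15 in Tm180. Tlr4, the receptor for bacterial lipopolysaccharide, rose by 0.81 ± 0.172 and Tnfrsf12a, a receptor of the tumour necrosis factor family, by 0.72 ± 0.167. These 7 genes were lost without Tm180 replicate 2 and without NTG replicate 1.

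Those that fell included Fah, the last enzyme of tyrosine breakdown (-0.80 ± 0.181), Kyat3, a kynurenine aminotransferase (-0.68 ± 0.126), Slc25a22, a mitochondrial glutamate carrier (-0.72 ± 0.124), and Aldh1l1, of folate metabolism (-0.67 ± 0.144). Pex11a, which divides peroxisomes, fell by 0.60 ± 0.141, Nudt7, a peroxisomal coenzyme A hydrolase, by 0.57 ± 0.117 and Acad11, an acyl-CoA dehydrogenase, by 0.50 ± 0.113. Acad11 read 10.21, 10.23 and 10.25 in NTG and 9.71, 9.70 and 9.78 in Tm180. None of these 7 was called without Tm180 replicate 2 or without NTG replicate 2.

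The arrays that stood apart did so in named genes. Tm180 replicate 2 read 8.17 for Il6, 8.90 for Ptx3 and 9.67 for Il33, against at most 3.84, 6.05 and 6.82 on the other 5 arrays. NTG replicate 1 read 11.84 for Iigp1, 11.21 for Irgm1 and 10.25 for Cd274, against at most 7.79, 7.37 and 6.96. None of these 6 genes was called.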
